A study of Mus musculus with 8 samples.

Results

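The genes described here are 10 genes that are widely transcribed but usually kept low in mature beta cells: Ldha, Slc16a1, Acot7, Mgst1, Oat, Igfbp4, Cxcl12, Smad3, Zfp36l1 and Arhgdib. They were chosen by name, and each of the 10 symbols matched 1 row of the 23284 in the deposited count tables. The counts came from bulk RNA of sorted Tomato-positive pancreatic endocrine cells of mice at embryonic day 17. All groups carried Neurog3Cre, a driver that marks endocrine precursors of every islet lineage, and the RosaTomato reporter, on a strain given as C56BL/J. KO cells were Neurod1floxed/floxed (4 libraries, replicates 8, 9, 17 and 24). Het cells, the controls, were Neurod1floxed/wt and so also carried 1 floxed allele (4 libraries, replicates 6, 7, 13 and 19). The labels name no wild-type group, and they do not say that the libraries came from separate animals, so p-values measure the spread between these libraries.

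Mature beta cells keep a small set of otherwise widespread genes at very low levels, and these are often called disallowed genes. Lactate dehydrogenase A and the monocarboxylate transporter MCT1, the products of Ldha and Slc16a1, are the best known. They interconvert pyruvate and lactate and carry both across the plasma membrane, so that with little of either, exercise-derived pyruvate or lactate does not trigger insulin release and glucose carbon goes to mitochondria. The silencing builds up as beta cells mature after birth, and DNA methylation and Polycomb marks take part in it. These libraries hold embryonic cells of several islet lineages, not mature beta cells, so low levels of the 10 genes are not a given here. Each of the 10 had reads in every library, with a lowest count of 5 (Arhgdib in Het replicate 19). In a bulk sample, fewer cells of a type and less RNA per cell cannot be told apart.

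The libraries held between 10.35 M and 16.1 M counts, and levels are given as CPM, the count scaled to a common library total. Neurod1, the targeted gene, stood at 2.55 to 22.2 CPM in KO and at 133 to 210.5 CPM in Het. Endocrine markers (12 genes, hormones and granule proteins among them, none absent) summed to between 20148 and 38193 CPM in KO and between 60599 and 84055 CPM in Het. These sums mostly follow the hormone genes Ins1, Ins2 and Gcg. Only these 3 were called lower with and without KO replicate 8 (edgeR adjusted p under 0.05), and none was called higher. Ins1 stood at 521, 682, 1492 and 1584 CPM in KO replicates 8, 9, 17 and 24. In Het replicates 6, 7, 13 and 19 it stood at 8350, 10726, 10015 and 24136 CPM. Ppy was higher in KO replicates 17 and 24 than in any Het library. KO replicate 8 stood apart: its 11 mesenchyme markers summed to 10749.8 CPM, against 286 to 1318 CPM in the other 7 libraries, and each of the 11 was highest there. Leukocyte markers (10 genes) summed to 602 CPM in KO replicate 8 and 307 CPM in KO replicate 9, against 19.7 to 79.5 CPM elsewhere. KO replicate 9 also had the highest acinar sum, 49017 CPM against 11268 to 35206 CPM in the others. Y-linked transcripts summed to 414 CPM or more in KO replicates 8, 9 and 24 and Het replicate 7, and to at most 0.442 CPM in the others. More KO than Het libraries thus held Y-linked RNA, so sex was unbalanced between the groups, and the main fits have no term for it. A Y-linked covariate is among the alternatives. Because of the mesenchyme markers in KO replicate 8, results are given with and without that library.

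With all 8 libraries no member passed the test for a difference between KO and Het, whose call is an adjusted p under 0.05 (edgeR quasi-likelihood test). In that fit 1.02% of the 14116 genes tested were called in either direction. At an unadjusted p under 0.05 there were 2 members, Smad3 and Zfp36l1, where 12.2% of all genes reached that level. DESeq2 called none of the 9 members it gave an adjusted p. It called 3.2% of 18274 genes, a wider set taken without the edgeR filter on low counts. Without KO replicate 8 edgeR called a single member, Oat, which was lower in KO, where 1.99% of 14307 genes were called and 1.31% were called lower. At an unadjusted p under 0.05 there were then 3 members, with Smad3 and Zfp36l1 beside it (edgeR), where 14.2% of all genes reached that level. Of the 10 log2 fold changes (KO over Het), 9 were positive with all 8 libraries, with a median of 1.17, where 53.4% of all genes were positive and their median was 0.03. Without KO replicate 8, 7 were positive and the median was 0.20, where 49.4% of all genes were positive and their median was −0.005. All 10 members passed the filter on low counts in both fits.

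**Figure D1:**
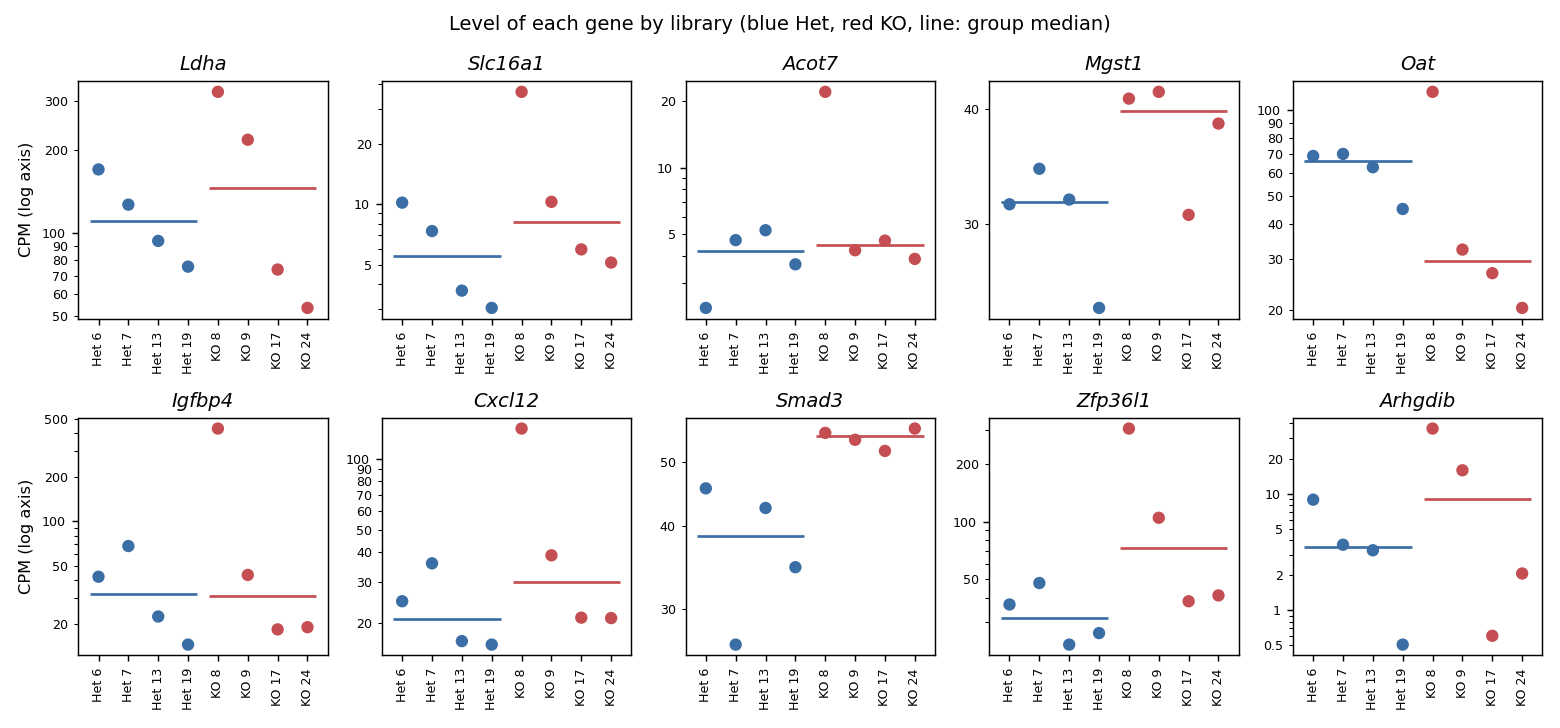
Level of each of the 10 genes (CPM, log axis) in every library, Het in blue and KO in red, with a line at each group's median. KO 8 is the highest library for 8 genes, the 4 KO points of Smad3 lie above its 4 Het points, and the other 3 KO points of Oat lie below its 4 Het points.

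KO replicate 8 was the highest library for 8 of the 10 genes, where this held for 22.7% of all genes tested. The exceptions were Mgst1 and Smad3. Its excess over the median of the other libraries ran from 1.21-fold for Smad3 to 19.1-fold for Igfbp4. Among the remaining 7 libraries KO replicate 9 was the highest for 6 members (Ldha, Slc16a1, Mgst1, Cxcl12, Zfp36l1 and Arhgdib), where this held for 16.6% of all genes. Het replicate 19, the library with the lowest mesenchyme sum and the highest endocrine sum, was the lowest of the 8 for 5 members, Slc16a1, Mgst1, Igfbp4, Cxcl12 and Arhgdib (11.4% of all genes). For Ldha, Slc16a1, Igfbp4, Cxcl12 and Arhgdib, KO replicates 8 and 9 and Het replicates 6 and 7 were above every other library. The other members did not have this order, and its share over all genes was not counted. The labels name no batch, and no fit blocked these sets of libraries. The part of other cell types or of a batch in these orders was not tested.

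**Figure D2:**
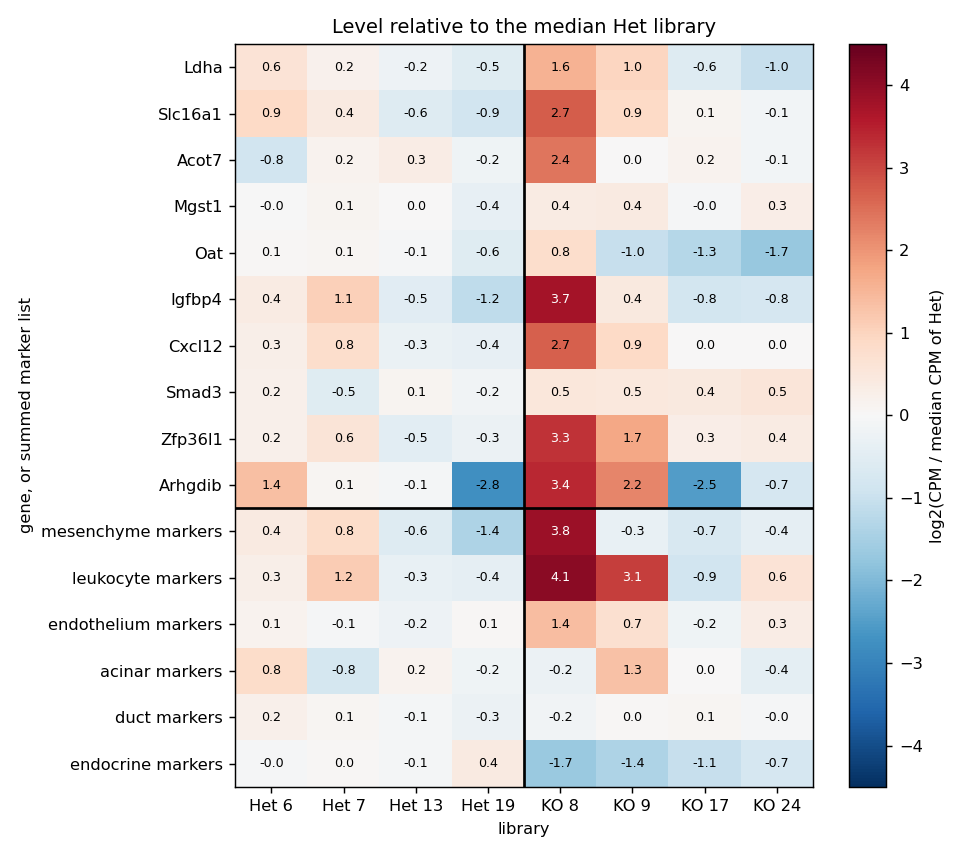
Level of each gene, and summed level of each marker list below the line, as log2 of CPM over the median Het library. The KO 8 column is at 3.7 for Igfbp4 and 3.8 for the mesenchyme markers, KO 9 is at 2.2 for Arhgdib and 3.1 for the leukocyte markers, and Smad3 is at 0.4 to 0.5 in all 4 KO libraries.

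Per kilobase of the longest coding transcript in GENCODE M21, the 10 genes spanned a wide range of levels in Het. Ldha was the highest, with a median of 60.7 CPM per kb (41.6 to 93.7). Oat (30.7, 20.9 to 32.6) and Mgst1 (27.2, 20.9 to 29.5) came next, and their ranges overlapped. Zfp36l1 (10.6), Igfbp4 (8.42), Smad3 (7.59), Cxcl12 (3.69), Arhgdib (2.90), Acot7 (2.77) and Slc16a1 (1.25) followed. In that order only Ldha and Oat, and Mgst1 and Zfp36l1, were neighbours whose 4 Het libraries did not overlap. The transporter gene of the lactate pair was thus the lowest of the 10 on this scale and the enzyme gene the highest.

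Oat encodes ornithine aminotransferase, a mitochondrial enzyme that links ornithine to glutamate and proline. It stood at 116, 32.5, 26.8 and 20.3 CPM in KO replicates 8, 9, 17 and 24, and at 69.0, 70.1, 63.0 and 45.0 CPM in Het replicates 6, 7, 13 and 19. KO replicate 8 was the highest of all 8 libraries, and the other 3 KO libraries were below the lowest Het library. With all 8 the log2 fold change was −0.34 (SE 0.48, adjusted p = 0.825, edgeR). Without that library Oat fell from 61.7 ± 11.6 CPM (SD, n = 4) to 26.3 ± 5.86 CPM (SD, n = 3), a log2 fold change of −1.23 (SE 0.22, 95% interval −1.72 to −0.74, edgeR adjusted p = 0.0160). KO was lower without overlap in 7.92% of all genes in that fit, and with all 8 libraries in 4.48% of them and in no member.

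Oat was also called lower with all 8 libraries when the mesenchyme markers entered as a covariate (log2 fold change −1.10, edgeR adjusted p = 0.00700) and by limma-voom with sample quality weights (−1.12, adjusted p = 0.0350). These fits called 2.5% and 2.15% of all genes lower. Neither is independent of the omission of KO replicate 8. The mesenchyme covariate is set mainly by that library, and quality weights can lower the weight of a library that stands apart. No fit that kept KO replicate 8 without that covariate or those weights called Oat. It was called as well without KO replicates 8 and 9 (0.738% of all genes called lower), and without KO replicate 8 with an acinar covariate (1.5%) or a Y-linked covariate (0.671%).

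Other settings did not give the call. With all 8 libraries and a leukocyte covariate Oat had −1.14 (edgeR adjusted p = 0.205), and with a Y-linked covariate −0.73 (adjusted p = 0.814). With KO replicate 8 left out, leaving out a second library kept the log2 fold change between −1.39 and −1.07. The edgeR call was lost without KO replicate 17 (adjusted p = 0.0805), KO replicate 24 (0.104) or Het replicate 13 (0.0536), with fewer libraries in the fit, and held without KO replicate 9 (0.0291), Het replicate 6 (0.0269), Het replicate 7 (0.0462) or Het replicate 19 (0.00685).

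Around Oat, 12 genes of ornithine, proline and polyamine metabolism were listed, and none passed the test in either fit (medians of log2 fold change −0.19 and, without KO replicate 8, −0.01). At an unadjusted p under 0.05 there were 0 and 1, the latter Srm, the spermidine synthase gene (−0.82, edgeR adjusted p = 0.147). Otc, for ornithine transcarbamylase, had the smallest p with all 8 libraries (−2.24, adjusted p = 0.432) at 0.425 ± 0.471 CPM in KO and 2.02 ± 1.45 CPM in Het (SD, n = 4 each). Arg1, Odc1 and Aldh18a1, for arginase, ornithine decarboxylase and the first enzyme from glutamate to proline, had log2 fold changes of −0.41, 0.20 and −0.25.

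Smad3 encodes a transcription factor that carries signals of TGF-beta and activin receptors to the nucleus. It was at 55.2, 53.9, 51.9 and 56.1 CPM in KO replicates 8, 9, 17 and 24, and at 45.6, 26.5, 42.6 and 34.7 CPM in Het replicates 6, 7, 13 and 19. Every KO library was above every Het library, a separation with KO higher that was seen in 3.55% of all genes tested. The KO libraries spread little (CV 3.36%, against 22.9% in Het). At their 624 to 758 counts, counting error alone gives a CV of about the KO size. The low CV is therefore not read as a trait of Smad3. The log2 fold change was 0.54 (SE 0.19, 95% interval 0.12 to 0.96), which did not pass over all genes (edgeR unadjusted p = 0.0160, adjusted p = 0.272). Leaving out KO replicate 8 gave 0.52 (SE 0.20, adjusted p = 0.258), so the value hardly moved with that library, and KO was still higher without overlap, as in 6.56% of all genes. It lay between 0.40 and 0.69 under every alternative run, with an adjusted p of at least 0.0955.

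The upstream sequences of Smad3, whose groups separated in both fits, of Oat, whose groups separated only without KO replicate 8, and of Slc16a1, the gene of the transporter MCT1, are shown from RefSeq (GRCm38.p6, 250 bases before the annotated start, sense strand, 5′ to 3′). Neurod1 binds E-boxes as a dimer with other basic helix-loop-helix proteins, and capitals mark each match to CANNTG, a motif that reads the same on both strands.
Oat, chr7:132576399-132576648, minus strand: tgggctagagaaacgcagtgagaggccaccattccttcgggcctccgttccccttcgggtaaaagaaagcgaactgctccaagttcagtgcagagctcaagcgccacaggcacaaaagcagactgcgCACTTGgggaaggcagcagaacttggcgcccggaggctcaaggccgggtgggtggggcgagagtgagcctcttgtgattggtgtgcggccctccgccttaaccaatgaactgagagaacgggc
Smad3, chr9:63757995-63758244, minus strand: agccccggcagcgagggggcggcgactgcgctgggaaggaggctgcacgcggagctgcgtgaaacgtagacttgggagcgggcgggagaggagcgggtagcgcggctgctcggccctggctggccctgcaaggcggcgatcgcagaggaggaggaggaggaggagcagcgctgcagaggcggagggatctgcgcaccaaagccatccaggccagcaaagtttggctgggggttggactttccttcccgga
Slc16a1, chr3:104638414-104638663, plus strand: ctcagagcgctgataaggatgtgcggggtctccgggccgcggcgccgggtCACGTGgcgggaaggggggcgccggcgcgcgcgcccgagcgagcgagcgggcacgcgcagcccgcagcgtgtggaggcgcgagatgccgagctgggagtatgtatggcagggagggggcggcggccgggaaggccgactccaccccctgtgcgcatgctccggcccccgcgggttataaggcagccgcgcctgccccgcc
Oat and Slc16a1 held 1 match each and Smad3 none. All 10 members matched the table, with 14 annotated starts among them, of which 10 held CANNTG in this window, where 66.2% of 32851 windows of all genes did. The form CAGATG, or CATCTG on the other strand, which overlaps CANNTG, occurred upstream of 1 start, that of Igfbp4, where 14.4% of all windows held it. The 3 windows shown held 14, 22 and 37 CG dinucleotides in the order given, where the median of all windows was 6. Over the 14 starts of the members the number ran from 1 to 37, so these 3 do not stand for the group. A match describes these letters and not binding, and no methylation was measured here.

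The other genes of the TGF-beta and Smad list, 20 in all, gave no call with all 8 libraries and 1 without KO replicate 8. Tgfb2, for the ligand TGF-beta 2, was at 30.3, 18, 16.4 and 12.9 CPM in KO replicates 8, 9, 17 and 24 and at 49.97, 32.7, 39.0 and 37.3 CPM in Het replicates 6, 7, 13 and 19. Its KO libraries were all below its Het libraries, as in 4.48% of all genes tested. Its log2 fold change was −1.03 (SE 0.27, edgeR adjusted p = 0.131), and Tgfb2 fell without KO replicate 8 (−1.34, SE 0.22, adjusted p = 0.0106). The receptor gene Tgfbr1 had −0.29 (adjusted p = 0.428) and Tgfbr2 1.74 (adjusted p = 0.479). These were −0.27 and −0.38 without KO replicate 8. Smad2, the close relative of Smad3, had 0.12, the shared partner Smad4 0.32 and the inhibitory Smad7 0.88, with adjusted p of 0.369 or more. They had 0.07, 0.23 and 0.73 without KO replicate 8.

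**Figure D3:**
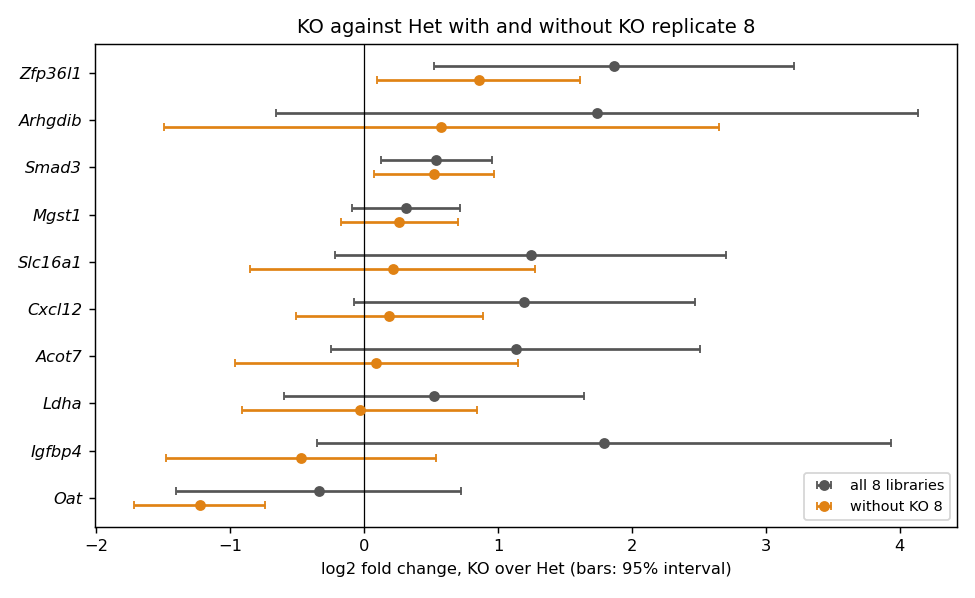
Log2 fold change of each gene, KO over Het, with its 95% interval, from all 8 libraries (grey) and without KO replicate 8 (orange). Igfbp4 moves from 1.79 to −0.47 and Oat from −0.34 to −1.23, while Smad3 (0.54 and 0.52) and Mgst1 (0.31 and 0.26) hardly move.

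Ldha, for the muscle-type subunit of lactate dehydrogenase, was at 325, 218, 73.8 and 53.5 CPM in KO replicates 8, 9, 17 and 24, and at 170.0, 127, 93.6 and 75.5 CPM in Het replicates 6, 7, 13 and 19. A pair of KO libraries was above all Het libraries and the other pair below all of them. Within Het, replicates 6 and 7 were likewise above replicates 13 and 19. The log2 fold change was 0.52 (SE 0.51, edgeR adjusted p = 0.721), and −0.03 without KO replicate 8 (SE 0.40, 95% interval −0.91 to 0.84, adjusted p = 0.981). The interval spans differences of nearly 2-fold either way, so equal levels are not shown. Without KO replicates 8 and 9, the 2 libraries of high leukocyte sum, it was −0.87 (adjusted p = 0.238).

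Slc16a1, for MCT1, was at 36.4, 10.3, 5.96 and 5.12 CPM in KO and at 10.2, 7.36, 3.71 and 3.04 CPM in Het, in the same replicate order. KO replicate 8 was more than 3 times as high as any other library, and the other 3 KO libraries lay within or just above the Het range. It had a log2 fold change of 1.25 (SE 0.66, edgeR adjusted p = 0.480), and 0.21 without KO replicate 8 (95% interval −0.85 to 1.28, adjusted p = 0.890). With mesenchyme and leukocyte sums also highest in KO replicate 8, their part in its level was not tested.

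Ldhb encodes the heart-type subunit that assembles with Ldha into the same tetramer. It stood at 13.05 ± 5.12 CPM in KO and 11.95 ± 3.51 CPM in Het (SD, n = 4 each), a log2 fold change of 0.13 (edgeR adjusted p = 0.928), and −0.12 (adjusted p = 0.916) without KO replicate 8. The log2 ratio of Ldha to Ldhb, each with 0.5 CPM added, sets both levels of a library against each other. It was 4.06, 4.196, 2.27 and 2.87 in KO replicates 8, 9, 17 and 24 and 3.80, 2.97, 2.79 and 3.29 in Het replicates 6, 7, 13 and 19. Again KO replicates 8 and 9 were above all Het libraries. The means were 3.35 ± 0.94 and 3.21 ± 0.44 (SD, n = 4 each), and the difference of 0.13 did not pass (p = 0.800, two-sided exact permutation test with 70 assignments). It was −0.10 when KO replicate 8 was left out (p = 0.857, exact permutation test with 35 assignments).

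**Figure D4:**
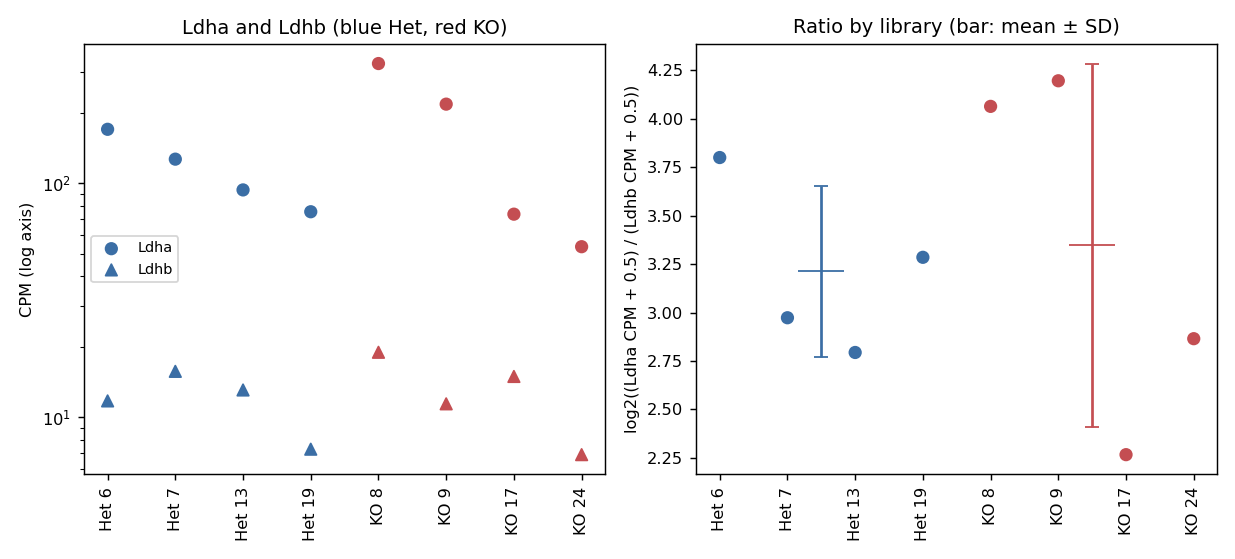
Left, level of Ldha (circles) and Ldhb (triangles) in CPM on a log axis, Het in blue and KO in red. Right, their log2 ratio by library, with the mean and SD of each group, at 4.06 and 4.196 in KO 8 and KO 9 and at 2.27 and 2.87 in KO 17 and KO 24.

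None of the 20 partner genes of lactate and pyruvate metabolism passed in either fit (edgeR), with 8 and 5 positive log2 fold changes and medians of −0.10 and −0.13. At an unadjusted p under 0.05 there were 2 with all 8 libraries and 4 without KO replicate 8. The first 2 were Gpd1 (−0.96, SE 0.29, adjusted p = 0.204) and Gpd2 (−0.41, SE 0.16, adjusted p = 0.336), for the cytosolic and mitochondrial enzymes of the glycerol phosphate shuttle, by which beta cells reoxidise NADH in place of lactate production. Both had KO libraries below all Het libraries (as in 4.48% of all genes tested), at 14.5 ± 5.58 against 28.1 ± 5.61 CPM and 209 ± 37.8 against 278 ± 30.4 CPM (SD, n = 4 each). Without KO replicate 8 they had −0.82 and −0.30, and beside them came Got1, for an aspartate aminotransferase (−0.67, edgeR adjusted p = 0.293), and, in the other direction, Pdk2, for a kinase that inhibits pyruvate dehydrogenase (0.61, adjusted p = 0.207). Slc16a3, for the lactate exporter MCT4, was at 8.82 CPM in KO replicate 8 and between 0.101 and 1.24 CPM in the other 7 libraries. Its log2 fold change was 2.24 (adjusted p = 0.423), and 0.50 (adjusted p = 0.858) without that library. Bsg, for the chaperone of MCT1 at the membrane, had a log2 fold change of −0.15 (adjusted p = 0.749).

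Acot7 encodes a cytosolic acyl-CoA thioesterase that is abundant in brain. It was at 22.1, 4.23, 4.68 and 3.86 CPM in KO replicates 8, 9, 17 and 24 and at 2.32, 4.70, 5.21 and 3.65 CPM in Het replicates 6, 7, 13 and 19. Outside KO replicate 8 the groups overlapped fully. The log2 fold change went from 1.13 (SE 0.62, edgeR adjusted p = 0.495) to 0.09 without KO replicate 8 (95% interval −0.97 to 1.15, adjusted p = 0.956). None of 12 other acyl-CoA genes passed in either fit. Acot9, a mitochondrial relative, had the smallest p with all 8 (1.92, adjusted p = 0.405). It stood at 10.1 CPM in KO replicate 8 and at no more than 5.13 CPM elsewhere, and had 1.15 (adjusted p = 0.593) without that library.

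Mgst1 encodes microsomal glutathione transferase, a membrane enzyme of detoxification. It varied least among the 8 libraries, by 1.71-fold from lowest to highest. It was at 41.0, 41.7, 30.7 and 38.5 CPM in KO replicates 8, 9, 17 and 24 and at 31.5, 34.4, 31.9 and 24.3 CPM in Het replicates 6, 7, 13 and 19. KO replicates 8, 9 and 24 were above every Het library and KO replicate 17 was inside the Het range. The log2 fold change was 0.31 (SE 0.18, 95% interval −0.09 to 0.72, edgeR adjusted p = 0.522), and 0.26 without KO replicate 8 (adjusted p = 0.605). Mgst2 and Mgst3 had 0.14 and −0.51, with adjusted p of 0.609 or more.

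Of 16 other glutathione and antioxidant genes 1 rose and none fell in either fit. Nfe2l2, for NRF2, the main transcription factor of antioxidant genes, was at 124, 124.5, 113 and 115 CPM in KO replicates 8, 9, 17 and 24 and at 60.2, 77.4, 69.9 and 78.4 CPM in Het replicates 6, 7, 13 and 19. The KO libraries lay above every Het library and close together. It rose by a log2 fold change of 0.74 (SE 0.13, edgeR adjusted p = 0.0362), and by 0.70 without KO replicate 8 (SE 0.15, adjusted p = 0.0289). Its list did not move as one: 8 of 16 log2 fold changes were negative with all 8 libraries, with a median of 0.01, and Sod1 (−0.47, adjusted p = 0.204) and Gpx3 (−0.74, adjusted p = 0.253) had KO libraries below all Het libraries without a call. Gstp1, for a cytosolic glutathione transferase, had them above all Het libraries, also without a call (25.05 ± 1.26 against 19.04 ± 0.937 CPM, SD, n = 4 each; 0.40, edgeR adjusted p = 0.401). Its near-identical neighbour gene makes its count uncertain. With all 8 libraries, KO was higher without overlap in 3.55% of all genes tested and lower without overlap in 4.48%.

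Igfbp4 encodes a secreted protein that binds insulin-like growth factors. It was at 429, 43.2, 18.4 and 19.05 CPM in KO replicates 8, 9, 17 and 24 and at 42.0, 68.0, 22.5 and 14.5 CPM in Het replicates 6, 7, 13 and 19. KO replicate 8 was more than 6 times as high as any other library, and the other 7 overlapped. Its log2 fold change was 1.79 with all 8 (SE 0.97, edgeR adjusted p = 0.489) and −0.47 without KO replicate 8 (SE 0.46, 95% interval −1.48 to 0.54, adjusted p = 0.701). Het replicate 7, the highest of these 7 for Igfbp4, was also the highest of them for the mesenchyme sum.

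All 13 tested genes of the IGF system had positive log2 fold changes with all 8 libraries (median 0.73) and 8 without KO replicate 8 (median 0.20), and none passed in either fit (edgeR, with 5 and 4 at an unadjusted p under 0.05). Igf2, a growth factor bound by Igfbp4, was at 3893 CPM in KO replicate 8 and between 138 and 518 CPM elsewhere. Igfbp7, another binding protein of that family, had the smallest p (0.74, SE 0.18, adjusted p = 0.114), and 0.74 (adjusted p = 0.0844) without KO replicate 8.

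Cxcl12 encodes a chemokine that mesenchyme cells make for cells with the receptor Cxcr4. It was at 134, 38.8, 21.1 and 21.0 CPM in KO replicates 8, 9, 17 and 24 and at 24.8, 35.9, 16.8 and 16.2 CPM in Het replicates 6, 7, 13 and 19. Of the other 3, a single KO library, replicate 9, was above the Het range. For Cxcl12 this gave a log2 fold change of 1.20 (SE 0.57, edgeR adjusted p = 0.435) and then 0.19 (95% interval −0.51 to 0.88, adjusted p = 0.844). The receptor genes Cxcr4 and Ackr3, the latter listed as Cxcr7, were at 17.4 and 19.7 CPM in KO replicate 8 and at no more than 4.31 and 1.75 CPM elsewhere. Neither passed, with log2 fold changes of 1.54 (adjusted p = 0.434) and 3.01 (adjusted p = 0.330). Without KO replicate 8 these were 0.48 (adjusted p = 0.791) and 0.92 (adjusted p = 0.715).

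Zfp36l1 encodes an RNA-binding protein that sends AU-rich transcripts to decay. It was at 305, 105, 38.5 and 41.2 CPM in KO replicates 8, 9, 17 and 24 and at 37.0, 47.8, 22.9 and 26.3 CPM in Het replicates 6, 7, 13 and 19. KO replicates 8 and 9 were above every Het library, and KO replicates 17 and 24 lay inside the Het range. It had the smallest p of the 10 with all 8 libraries and did not pass (log2 fold change 1.87, SE 0.61, edgeR unadjusted p = 0.0111, adjusted p = 0.227). When KO replicate 8 was left out it was 0.86 (SE 0.35, adjusted p = 0.282), and without KO replicates 8 and 9 it was 0.24 (adjusted p = 0.805). With the mesenchyme markers as a covariate and all 8 libraries it was 0.98 (adjusted p = 0.0704). Its relatives Zfp36 (1.20, adjusted p = 0.338) and Zfp36l2 (0.75, adjusted p = 0.438) were also highest in KO replicate 8 and did not pass, and had 0.53 and 0.28 without it. None of the 9 listed family and mRNA decay genes was called in either fit, with 1 and 0 at an unadjusted p under 0.05.

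Arhgdib encodes a cytosolic protein that is abundant in blood cells. It was at 36.2, 15.9, 0.603 and 2.07 CPM in KO replicates 8, 9, 17 and 24 and at 8.88, 3.65, 3.27 and 0.507 CPM in Het replicates 6, 7, 13 and 19. It varied most of the 10, by 71.4-fold from the lowest library to the highest, and the 2 KO libraries above all others were those of highest leukocyte sum. Arhgdib had a log2 fold change of 1.74 (SE 1.08, edgeR adjusted p = 0.553), 0.57 without KO replicate 8 (95% interval −1.50 to 2.65), and −1.62 without KO replicates 8 and 9 (adjusted p = 0.575). All 10 leukocyte markers had KO replicates 8 and 9 as their 2 highest libraries. Ptprc, for the leukocyte antigen CD45, was at 36.9 and 16.4 CPM there and at no more than 5.75 CPM elsewhere. Het replicate 6, the next highest for Arhgdib, had a leukocyte sum of 43.2 CPM, inside the range of the other Het libraries. Arhgdia, the widespread relative, had a log2 fold change of 0.26 (adjusted p = 0.651) and Arhgdig 0.08 (adjusted p = 0.967).

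A further 12 genes usually low in beta cells were listed, and none passed in either fit (edgeR, with 5 and 3 at an unadjusted p under 0.05). With all 8 libraries 10 were positive and 10 were highest in KO replicate 8, and the list's median went from 0.84 to 0.20 without it. Pdgfra, a receptor of mesenchyme cells, was at 235 CPM in KO replicate 8 and between 1.01 and 25.2 CPM elsewhere (log2 fold change 2.33, and −0.97 without that library). Cat, for catalase, had all KO libraries above all Het libraries (as in 3.55% of all genes tested), at 115 ± 30.3 against 73.6 ± 5.19 CPM (SD, n = 4 each; 0.64, SE 0.19, edgeR adjusted p = 0.183). Hk1, for a hexokinase of high glucose affinity, stood at 7.29, 0.319, 1.43 and 0.539 CPM in KO and 4.87, 4.64, 2.47 and 0.912 CPM in Het (−0.43, adjusted p = 0.900, and −2.07, adjusted p = 0.279, without KO replicate 8). Rest, for a repressor of neuronal genes, had 0.67 (adjusted p = 0.701), and −0.07 (adjusted p = 0.966) without that library.

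The 13 genes of DNA methylation and Polycomb repression gave no call in either fit (edgeR, with 0 and 3 at an unadjusted p under 0.05). Dnmt3a, for the methyltransferase that silences some of the 10 genes as beta cells mature, was at 877 ± 146 CPM in KO and 920 ± 88.3 CPM in Het (SD, n = 4 each), a log2 fold change of −0.07 (adjusted p = 0.900), and 0.011 (adjusted p = 0.983) without KO replicate 8. Dnmt3b had the smallest p (0.45, SE 0.20, adjusted p = 0.414), and Ezh2, for the catalytic subunit of Polycomb complex PRC2, had 0.10 (adjusted p = 0.868). Their transcript levels do not report the activity of the enzymes.

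**Figure D5:**
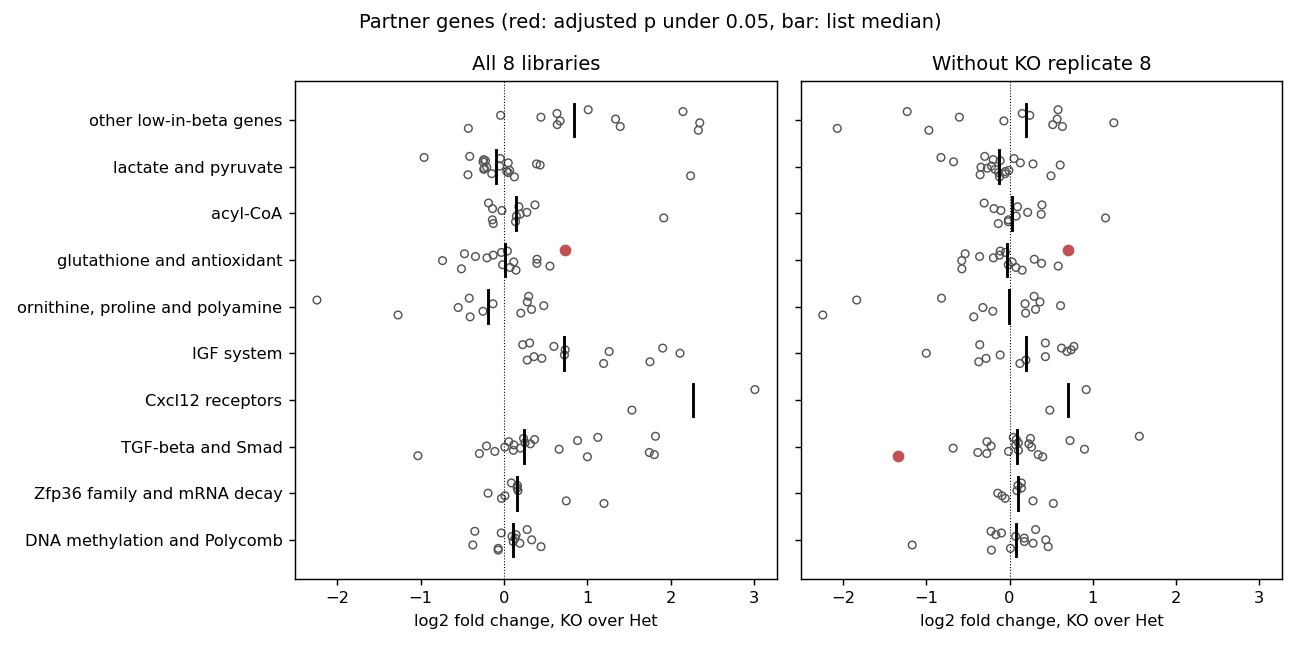
Log2 fold change, KO over Het, of the tested partner genes, by list, with all 8 libraries on the left and without KO replicate 8 on the right. Filled red points passed the test (Nfe2l2 in both panels, Tgfb2 on the right), bars are list medians, and the median of the IGF list moves from 0.73 to 0.20.

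Genes with the most similar pattern were sought by Pearson correlation of log2 CPM across libraries, among 9804 named genes whose mean reached 8 CPM. The values rank genes and are the top of a long search over few libraries, 1 of which stood apart. Over all 8 libraries Igfbp4 was closest to Ahnak (r = 0.994), Ldb2 and Capn6, and Cxcl12 to Lpar4 (0.993) and the basement membrane genes Hspg2 (0.991) and Nid2 (0.987). Slc16a1 was closest to Marcks (0.992), Fads1 and Ext1, Zfp36l1 to Rab8b (0.983), Ppt1 and Hspg2, and Acot7 to S1pr2 (0.989), St3gal2 and Raph1. Arhgdib was closest to Rnf165 (0.970), Colec12 and Lrrc58, Ldha to Snx5 (0.978), Gas7 and Rnf165, Mgst1 to Ctns (0.974), Klhl24 and Hmgb3, and Smad3 to Mob3b (0.968), Susd1 and Bmf. Oat was closest to the mitotic cyclin gene Ccnb1 (0.982), the replication helicase gene Mcm6 (0.973) and Hnrnpf (0.972).

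Over the 7 libraries without KO replicate 8 some of these neighbours stayed. Oat was closest to Cryz (0.991) and the cell-cycle genes Cks1b (0.989) and Ccnb2 (0.985), Ldha to Xbp1 (0.988), Asph and Impad1, and Smad3 to Ube2d1 (0.989), Lypd6b and Mob3b. Marcks (0.989) remained first for Slc16a1, with Tns1 and Hrsp12, Ctns (0.973) for Mgst1, with Klhl24 and Flna, and Lpar4 (0.972) for Cxcl12, with Npm1 and Fez2. Igfbp4 was closest to Calu (0.986), Gnpda2 and Ahnak, Arhgdib to Lrrc58 (0.985), Mtfmt and Ube2d2, Zfp36l1 to Shmt2 (0.974), Apoe and Sh3bgrl, and Acot7 to Stradb (0.993), Nfs1 and Fgd6.

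An adjusted p of 1 was given to 9 of the 10 genes in the authors' deposited table. The remaining gene, Smad3, had a fold change of 1.45, a p of 0.0383 and an adjusted p of 0.736 in the authors' deposited table.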

How the data were processed

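RNA of sorted Tomato-positive cells (4 KO and 4 Het libraries) was turned into amplified cDNA with a NuGen Ovation kit and sequenced as single-end reads, per the labels' protocols. The deposited counts are whole reads per gene symbol, not normalized. The build mm9 and the tools DESeq, Cufflinks 2.0.2, TopHat2 2.1.0 and bcl2fastq 1.8.4 are named, per the submitters' processing notes. The counting tool is not given in the sources used here, nor is its strand setting, so reads of overlapping genes cannot be told apart. Amplified copies count as reads. The authors also deposited a table with mean signal (normalized counts) per group, the fold change as a ratio, its log2 and p-values, per the file headers.

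Counts were fitted here with edgeR 4.0.16 (R 4.3.3; filterByExpr with minimum count 10 and total 15, TMM scaling, quasi-likelihood F test, two-sided, no covariate, Benjamini-Hochberg over all genes tested), on all 8 libraries and without KO replicate 8. Alternatives used DESeq2 1.42.0, limma 3.58.1 voom with quality weights, other scalings and filters, marker covariates and each library left out. Correlations used log2 CPM with a prior count of 2. The code of the edgeR fit was run on simulated counts without an outlying library. Their dispersion was lower than the common dispersion here (0.181 with all 8 libraries, 0.123 without KO replicate 8). That run therefore does not give the error rate or power in these data. No 2 libraries were identical. The members and lists were chosen with earlier results of these data known. Named genes were Neurod1, the members, called genes of each list (up to 4) or else that of smallest p, set partners, and the 3 nearest genes. Gpd2, Srm, Arg1, Odc1, Aldh18a1, Sod1, Gpx3, Gstp1, Got1, Pdk2 and Ptprc were added as examples after their values were seen. The result of 1 partner list is not reported here. Mpc1, Mpc2 and Ackr3 were found under older symbols through RefSeq names. Coordinates are given only for the upstream windows, on the RefSeq build GRCm38.p6, and not on mm9, the build named for the counts.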

Additional observations from a re-analysis of the deposited data

Results flagged for a closer look

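Among 51 values checked in both groups (the 10 genes, Neurod1, the Ldha to Ldhb ratio, marker sums and named partners), 17 groups had 1 library far from the other 3. The rule flags about 1 in 20 for independent normal values. These values share the same libraries and need not be normal, so that rate is not the chance rate here. KO replicate 8 was the high library in 13 of them. For the members it stood at 36.4 CPM for Slc16a1 (next KO library 10.3), 22.1 for Acot7 (4.68), 116 for Oat (32.5), 429 for Igfbp4 (43.2) and 134 for Cxcl12 (38.8). It stood at 10749.8 CPM for the summed mesenchyme markers (588), 19.7 for Cxcr7 (1.75), 8.82 for Slc16a3 (1.06), 235 for Pdgfra (8.63), 7.29 for Hk1 (1.43), 17.4 for Cxcr4 (4.31), 3893 for Igf2 (328) and 161 for Tgfbr2 (15.4). KO replicate 9 was high for the summed acinar markers, at 49017 CPM (next 20044). Among Het libraries, replicate 19 was high for Neurod1 (210.5 CPM, next 141) and replicate 6 for Tgfbr1 (215, next 166) and Arhgdig (109, next 29.6).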

How the results depend on the processing

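No paired analysis was possible because the replicate numbers of KO and Het are not shared. No member was called with median-ratio scaling, total counts, DESeq2 (which gave Igfbp4 no p), no filter, a filter of 2 CPM in 4 libraries, a Y-linked, acinar or leukocyte covariate, or without any 1 library other than KO replicate 8. 1 member, Oat, was called without KO replicate 8, with limma-voom, with the mesenchyme covariate, without KO replicates 8 and 9, and without KO replicate 8 with an acinar or Y-linked covariate, so that leaving out 1 library gave 0 to 1. The leukocyte covariate, KO replicates 8 and 9 left out together, a second library left out beside KO replicate 8, and covariates beside that omission were chosen after seeing the data. Over all genes, 144 were called, 29 to 285 with 1 library left out, 585 by DESeq2, 500 by limma-voom, 571 with the mesenchyme, 28 with the Y-linked and 83 with the acinar covariate, and 322 without KO replicate 8 with the acinar covariate.

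Directions turned for uncalled members only. Ldha was −0.034 without KO replicate 8, −0.18 by limma-voom, −0.87 without KO replicates 8 and 9, −0.48 with the leukocyte covariate, and −0.53 and −0.28 without KO replicate 8 with the acinar and Y-linked covariates. Igfbp4 was −0.47, −0.020, −0.98, −0.39, −0.58 and −0.81 in the same order, and −0.14 with the mesenchyme covariate. Arhgdib was −0.048 by limma-voom, −0.090 with the Y-linked covariate, −1.62 without KO replicates 8 and 9, −1.38 with the leukocyte covariate, and −0.49 and −0.65 without KO replicate 8 with the acinar and Y-linked covariates. Slc16a1 was −0.14 and Cxcl12 −0.16 without KO replicates 8 and 9, and Cxcl12 −0.061 without KO replicate 8 with the Y-linked covariate. The log2 ratio of Ldha to Ldhb differed by −0.10 without KO replicate 8, −0.15 without KO replicate 9, −0.0048 without Het replicate 13 and −0.65 without KO replicates 8 and 9 (exact permutation p from 0.200 to 1), and by −0.15 to 0.50 over all single omissions. With KO replicates 8 and 9 left out there were only 15 assignments, so that test could not give a p under 0.05. Leaving out 1 library gave −0.034 to 0.80 for Ldha and −0.47 to 2.27 for Igfbp4. The cause was not tested. Depth limits Arhgdib most, with 5 to 497 counts a library.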
